A study of Homo sapiens with 16 samples.

Results

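AS1 RNAs are transcripts named for a gene on the opposite strand, with the suffix -AS1 after the symbol of that gene. Of the 28252 rows in the deposited table of translation ratios, 1021 had a symbol ending in -AS1. The 357 of these with a ratio in all 8 columns are described here, among 15864 genes that had all 8. A further 339 AS1 rows had 1 to 7 ratios and 325 had none, and these were not tested. The sense gene, which is the symbol without -AS1, was a row of the table for 354 of the 357, and for 337 it also had all 8 ratios. Measured in the study were H9 cells, an established line of human embryonic stem cells grown without feeder cells. Cells were given an siRNA against OCT4 (siOCT4), the pluripotency factor encoded by POU5F1, or a control siRNA (NC), and were kept at 1% or 20% oxygen. From each culture 1 library was made of total RNA and 1 of the RNA held by ribosomes with their nascent chains (RNC), giving 16 libraries in 8 labelled cultures. The groups were siOCT4 at 1% oxygen, control siRNA at 1% oxygen, siOCT4 at 20% oxygen and control siRNA at 20% oxygen, with 2 cultures in each. The deposited value is the translation ratio, the RNC level over the RNA level of a gene. Counts and levels were not used here, so the depth behind a ratio is unknown, the OCT4 knockdown could not be checked, and a change can come from either level. All 12 listed embryonic stem cell markers had 8 ratios, as did 4 of 5 fibroblast markers, which says nothing of their levels.

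Antisense transcription often starts at or near the promoter of the sense gene or runs back across its exons. Some antisense RNAs act on the gene they lie against, others work elsewhere in the cell, and most have no known function. Although classed as noncoding, many such RNAs are found with ribosomes, and the RNC fraction takes up RNA that carries a ribosome with a growing peptide. In the GENCODE 29 annotation, 259 of the 333 AS1 RNAs matched by symbol were of the type antisense, 36 were processed transcripts and 30 were lincRNAs. Exons of the AS1 RNA and of its sense gene overlapped for 257 of the 357, only their introns or spans overlapped for 37, and 36 did not overlap and started within 1000 bases of each other. For 26 the pair could not be placed, and 1 pair lay farther apart. Whether the deposited values were counted by strand is not given in the sources used here. Where exons overlap, reads of the AS1 RNA and of the sense gene may therefore not be told apart.

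Ratios of the AS1 RNAs fell steeply with GC content in 2 of the 4 groups, so stretches of 4 AS1 RNAs are shown with G and C in capitals. Each is 150 bases of the longest GENCODE 29 transcript on GRCh38, within 1 exon and outside the exons of protein-coding genes, chosen to be closest in GC content to the whole transcript. The first 2 are AT-rich, from exon 4 of OIP5-AS1 (chr15:41298214-41298363, plus strand, transcript GC content 38.4%) and exon 3 of PSMA3-AS1 (chr14:58285598-58285747, minus strand, 38.7%). The last 2 are GC-rich, from exon 4 of CACTIN-AS1 (chr19:3612792-3612941, plus strand, 65.6%) and exon 1 of SMARCA5-AS1 (chr4:143514467-143514616, minus strand, 65.0%).
OIP5-AS1: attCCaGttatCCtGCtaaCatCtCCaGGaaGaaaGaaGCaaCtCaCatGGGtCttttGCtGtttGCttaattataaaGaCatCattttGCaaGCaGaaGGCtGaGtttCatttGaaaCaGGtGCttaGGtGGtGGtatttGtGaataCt
PSMA3-AS1: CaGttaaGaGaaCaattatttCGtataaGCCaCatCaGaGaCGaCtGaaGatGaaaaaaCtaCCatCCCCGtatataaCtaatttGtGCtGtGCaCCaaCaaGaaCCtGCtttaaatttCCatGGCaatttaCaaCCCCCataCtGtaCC
CACTIN-AS1: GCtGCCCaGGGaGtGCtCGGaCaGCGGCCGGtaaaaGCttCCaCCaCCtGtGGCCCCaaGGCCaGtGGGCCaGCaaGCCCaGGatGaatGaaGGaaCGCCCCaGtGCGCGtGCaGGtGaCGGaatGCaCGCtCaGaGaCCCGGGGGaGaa
SMARCA5-AS1: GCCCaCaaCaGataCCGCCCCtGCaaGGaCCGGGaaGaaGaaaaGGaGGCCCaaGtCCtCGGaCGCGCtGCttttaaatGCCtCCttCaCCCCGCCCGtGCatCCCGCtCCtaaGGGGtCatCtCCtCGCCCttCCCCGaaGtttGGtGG
The capitals are sparse in OIP5-AS1 and PSMA3-AS1 and dense in CACTIN-AS1 and SMARCA5-AS1. The share of the transcript outside protein-coding exons was 96.3% for OIP5-AS1, 90.0% for PSMA3-AS1, 45.9% for CACTIN-AS1 and 33.3% for SMARCA5-AS1.

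Among genes with all 8 ratios, the median ratio of the AS1 RNAs lay between 1.11 and 1.40 in a culture, and that of all genes tested between 1.02 and 1.35. This filter kept 357 of 1021 AS1 rows and 15864 of all 28252 rows. Whether a low RNC level led to a missing ratio is not known, so the filter may select on the value compared. The medians therefore say nothing of RNAs that lacked a ratio in some culture, and cannot show how far AS1 RNAs as a class are held by ribosomes. The median ratio of the AS1 RNAs tested was 1.40 and 1.34 in the 2 siOCT4 cultures at 1% oxygen and 1.15 and 1.14 in the 2 control cultures at 1% oxygen. It was 1.14 and 1.15 in siOCT4 cultures at 20% oxygen and 1.11 and 1.30 in control cultures at 20% oxygen. Over all genes tested, the medians in the same order of groups were 1.35 and 1.31, 1.02 and 1.02, 1.11 and 1.11, and 1.14 and 1.20. Between 53.5% and 65.3% of the AS1 RNAs had a ratio above 1 in a culture. The sense genes had wider quartiles than the AS1 RNAs in siOCT4 cells at 1% oxygen and control cells at 20% oxygen, as the plot of medians and quartiles shows. The 194 LINC RNAs, another class of long noncoding RNA, had medians between 1.09 and 1.54 across the 8 cultures.

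**Figure D1:**
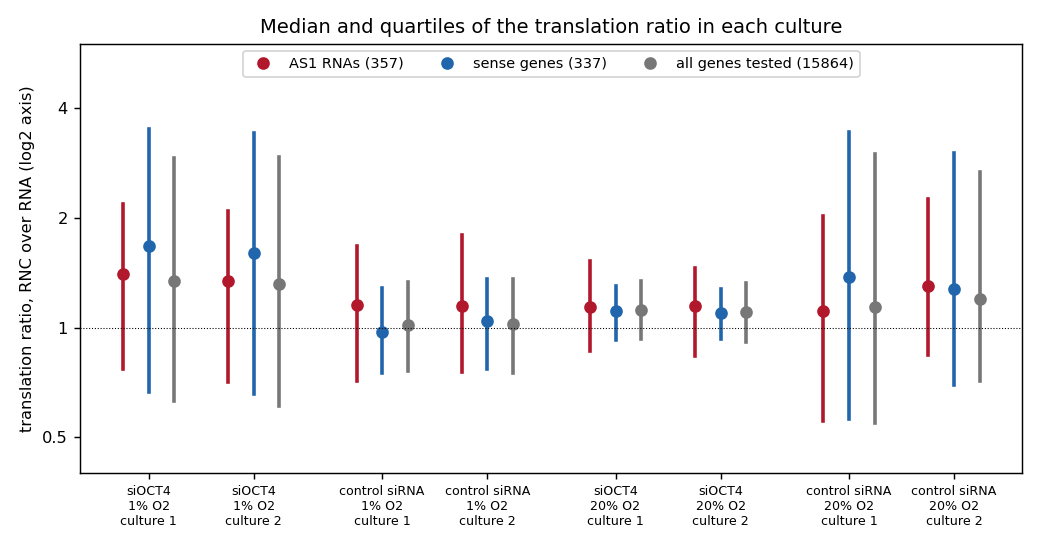
Median (points) and lower to upper quartile (lines) of the translation ratio in each culture, on a log2 axis, for the AS1 RNAs, their sense genes and all genes tested. The AS1 medians lie between 1.11 and 1.40, and the quartiles of the sense genes are widest in siOCT4 cells at 1% oxygen and control cells at 20% oxygen.

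Many AS1 RNAs had a ratio that other genes of the same culture also had. A ratio shared by at least 3 genes of a culture within a relative tolerance of 2e-06 is called recurrent here, as ratios of small whole numbers would be. The median AS1 RNA had a recurrent ratio in 5 of 8 cultures, and 74 had one in every culture. Only 29 AS1 RNAs (8.12%) had none, against 61.1% of the sense genes and 51.0% of all genes tested. The standard error of a log2 change had a median of 0.46 over the AS1 RNAs and 0.23 over all genes tested. The 29 RNAs with no recurrent ratio carry most of the description that follows.

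Across AS1 RNAs the ratio fell with GC content in control cells at 20% oxygen and in siOCT4 cells at 1% oxygen. In the 2 siOCT4 cultures at 1% oxygen, the 47 AS1 RNAs with a GC content under 42% had medians of 2.87 and 2.62, and the 45 over 58% had 0.745 and 0.579. The control cultures at 1% oxygen gave 1.20 and 1.22 for the AT-rich AS1 RNAs and 1.33 and 0.803 for the GC-rich ones. At 20% oxygen the AT-rich class had 1.14 and 1.29 in siOCT4 cultures, where the GC-rich class had 1.11 and 0.912. The control cultures there gave 2.58 and 2.78 for the AT-rich class, with 0.498 and 0.840 for the GC-rich one. The 2 classes were thus far apart in both cultures of 2 groups and close in the other 2 groups. Pearson's r of log2 ratio and GC content across 333 AS1 RNAs was -0.51 and -0.55 for siOCT4 at 1% oxygen, and 0.08 and -0.18 for the controls at 1%. For siOCT4 at 20% oxygen it was -0.13 and -0.14, and for the controls at 20% it was -0.56 and -0.49. Among the 28 with no recurrent ratio and a GC content, r was -0.54 and -0.61 for siOCT4 and -0.18 and -0.49 for controls at 1% oxygen. At 20% it was -0.47 and -0.31 for siOCT4 and -0.61 and -0.55 for controls. Their slopes, in log2 per 10% of GC content, were -0.64 and -0.78, -0.12 and -0.30, -0.19 and -0.13, and -1.02 and -0.71 in that order. These points share libraries and are not independent replicates. Each comparison of 2 groups therefore sets a group with a steep trend against one with a flatter trend. For this reason counts and changes are also given on residuals from a spline of each culture's log2 ratios on GC content, called GC corrected, for the 333 AS1 RNAs and 15261 genes with a GC content. The trend is not shown to be particular to AS1 RNAs. Of all genes, 53.3% were called for siOCT4 at 20% oxygen as deposited and 17.7% GC corrected, and 61.0% and 45.3% for siOCT4 at 1%.

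**Figure D2:**
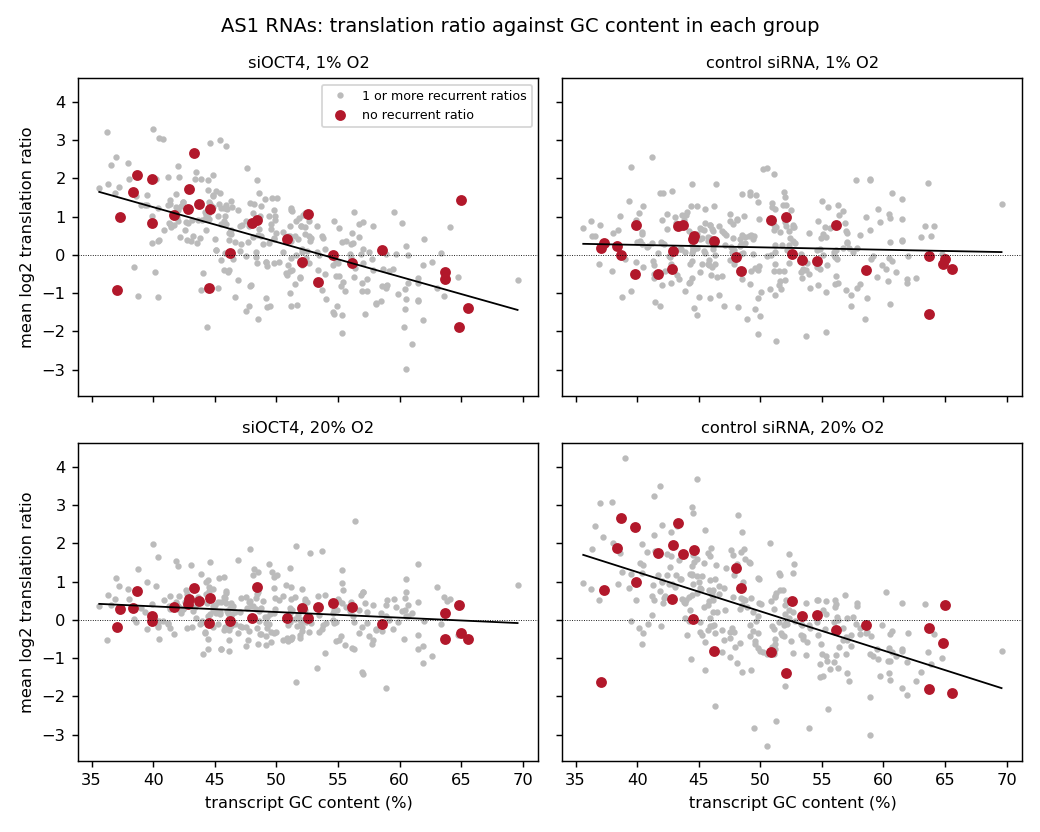
Mean log2 translation ratio of 2 cultures against the GC content of the longest transcript for 333 AS1 RNAs in each group, with a straight line fitted to all points. The line falls in siOCT4 cells at 1% oxygen and control cells at 20% oxygen, and SMARCA5-AS1 at 65.0% and VIM-AS1 at 37.1% lie far from it in siOCT4 cells at 1% oxygen.

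At 1% oxygen, siOCT4 cells had a higher ratio than control cells for 80 AS1 RNAs and a lower one for 33 of 357, by limma with an adjusted p under 0.05 over all genes. Of the AS1 RNAs 22.4% were thus called higher and 9.24% lower, against 41.1% higher and 19.9% lower over all genes tested. The median log2 change was 0.16 over the AS1 RNAs and 0.42 over all genes tested. With each culture centred on its median over all genes, 57 were called higher and 57 lower. The shares of all genes called with this centring are not given here, so the shift cannot be set against theirs. GC corrected, 35 AS1 RNAs were called higher and 54 lower of 333, against 22.3% higher and 23% lower of all genes. In both analyses 24 were called higher and 23 lower, and 2 were called in opposite directions. The GC corrected counts came down to between 17 and 21 higher without control culture 1 or either siOCT4 culture at 1% oxygen, and to between 32 and 34 lower without any 1 of the 4 cultures at 1% oxygen. Among the 29 AS1 RNAs with no recurrent ratio, 12 were called higher and 5 lower as deposited.

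CERS6-AS1, antisense to a ceramide synthase gene, had the largest rise at 1% oxygen among these 29. Its ratios were 3.96 and 4.0 in siOCT4 cells and 0.633 and 0.801 in control cells. The log2 change was 2.48 ± 0.20 (SE, adjusted p = 0.00035), and 0.86 ± 0.11 GC corrected (adjusted p = 0.0024). PSMA3-AS1, beside the gene of a proteasome subunit, had ratios of 4.30 and 4.17 in siOCT4 cells and 0.934 and 1.08 in control cells. Its log2 change of 2.08 ± 0.42 (adjusted p = 0.00705) was 0.40 ± 0.34 GC corrected (adjusted p = 0.381). THAP9-AS1, beside the gene of a protein related to transposases, had ratios of 6.75 and 6.01 in siOCT4 cells and 1.55 and 1.87 in control cells. Its log2 change was 1.91 ± 0.18 (adjusted p = 0.000489), and 0.64 ± 0.24 GC corrected (adjusted p = 0.0768). For all 3 the cultures of the 2 groups did not overlap, which was a condition for naming them. Of the 3 only CERS6-AS1 passed the test GC corrected.

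SMARCA5-AS1 was GC-rich and had a higher ratio in siOCT4 cells at 1% oxygen. SMARCA5 encodes the ATPase of ISWI chromatin remodelling complexes. The antisense RNA had ratios of 2.85 and 2.56 in siOCT4 cells and 1.08 and 0.803 in control cells at 1% oxygen. Its log2 change was 1.53 ± 0.31 (adjusted p = 0.0069) as deposited and 2.53 ± 0.26 (adjusted p = 0.00148) GC corrected. SMARCA5 itself, with a GC content of 39.0%, had ratios of 4.52 and 4.51 in siOCT4 cells and 0.625 and 0.770 in control cells. Sense exons cover 66.7% of the exon bases of SMARCA5-AS1, and whether the 2 genes share reads was not tested. EMC3-AS1, antisense to the gene of a subunit of the endoplasmic reticulum membrane complex, rose by 1.03 ± 0.26 (adjusted p = 0.0164), with ratios of 2.18 and 2.00 in siOCT4 cells and 0.927 and 1.12 in control cells. The call of EMC3-AS1 was lost when control culture 1 or either siOCT4 culture at 1% oxygen was left out (adjusted p of up to 0.0855), with a log2 change between 0.89 and 1.17. GC corrected its change was 1.08 ± 0.25 with the longest transcript (adjusted p = 0.0172) and 0.69 ± 0.26 with the mean GC content of its transcripts (adjusted p = 0.0778). EMC3 went the other way, with ratios of 0.996 and 1.13 in siOCT4 cells and 1.68 and 1.70 in control cells (log2 change -0.67 ± 0.13, adjusted p = 0.00594).

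MIF-AS1 fell the most of the 29 in siOCT4 cells at 1% oxygen. MIF encodes macrophage migration inhibitory factor. The ratios of MIF-AS1 were 0.282 and 0.256 in siOCT4 cells and 0.797 and 0.884 in control cells (log2 change -1.64 ± 0.19, adjusted p = 0.000842). GC corrected the change was -0.66 ± 0.27 (adjusted p = 0.0996). EPB41L4A-AS1, which hosts a small nucleolar RNA, had ratios of 0.606 and 0.493 in siOCT4 cells and 1.31 and 1.35 in control cells. It fell by 1.28 on the log2 scale (SE 0.24, adjusted p = 0.005), and GC corrected the change was -2.38 ± 0.23 (adjusted p = 0.00125). EPB41L4A, whose protein belongs to a family that links membrane proteins to the cytoskeleton, rose in the same comparison, with ratios of 3.78 and 3.60 in siOCT4 cells and 1.36 and 1.51 in control cells (log2 change 1.36 ± 0.25, adjusted p = 0.00466). The antisense RNA and the sense gene thus changed in opposite directions. Sense exons cover 49.6% of the exon bases of EPB41L4A-AS1, and both longest transcripts have a GC content of 44.5%. GC corrected the change of EPB41L4A was 0.26 ± 0.28 (adjusted p = 0.481).

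CEBPB-AS1 and VIM-AS1 were lower in siOCT4 cells at 1% oxygen, and neither call held in every analysis that left out a culture. CEBPB encodes a transcription factor of the C/EBP family, and VIM encodes vimentin, an intermediate filament protein. CEBPB-AS1 had ratios of 0.902 and 0.847 in siOCT4 cells and 2.30 and 1.72 in control cells (log2 change -1.18 ± 0.34, adjusted p = 0.0247). VIM-AS1 had ratios of 0.527 and 0.526 in siOCT4 cells and 1.49 and 0.865 in control cells (log2 change -1.11 ± 0.36, adjusted p = 0.0381). Leaving out control culture 1 or either siOCT4 culture at 1% oxygen gave an adjusted p of up to 0.123 for CEBPB-AS1 and up to 0.184 for VIM-AS1, and VIM-AS1 was also lost without either siOCT4 culture at 20% oxygen, with a log2 change of -0.71 at the least. GC corrected the changes were -1.20 ± 0.29 (adjusted p = 0.0199) and -2.82 ± 0.50 (adjusted p = 0.00671). The corrected size for VIM-AS1 depends on the transcript taken. Its longest transcript has a GC content of 37.1% and the other annotated one 60.7%, and with the mean of both the change was -1.80 ± 0.38 (adjusted p = 0.0124).

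At 20% oxygen the calls pointed mostly the other way. siOCT4 cells had a higher ratio than control cells for 30 AS1 RNAs and a lower one for 47 of 357, against 19.2% higher and 34.1% lower of all genes tested. The median log2 change was -0.03 over the AS1 RNAs and -0.09 over all genes tested. GC corrected, 29 were called higher and 11 lower of 333, against 8.57% and 9.12% of all genes. By limma these GC corrected counts were 0 and 0 when either siOCT4 culture at 20% oxygen was left out, where 74 and 57 AS1 RNAs had an unadjusted p under 0.05. They were 8 and 7 without control culture 1 at 20% oxygen, 16 and 6 without either siOCT4 culture at 1% oxygen, and 19 and 17 were higher without control culture 1 and 2 at 1% oxygen. As deposited, 9 were called higher and 25 lower without siOCT4 culture 2 at 20% oxygen, 14 were higher without siOCT4 culture 1 or control culture 1 at 20% oxygen, and 56 were higher without control culture 2 at 20% oxygen. Among the 29 with no recurrent ratio, 7 were called higher and 10 lower.

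CERS6-AS1, PSMA3-AS1 and THAP9-AS1, which had risen at 1% oxygen, were lower in siOCT4 cells at 20% oxygen. CERS6-AS1 had ratios of 1.02 and 0.932 in siOCT4 cells and 6.31 and 4.59 in control cells (log2 change -2.47 ± 0.20, adjusted p = 0.000653). GC corrected its change was -0.91 ± 0.11 (adjusted p = 0.0124). PSMA3-AS1 had ratios of 2.02 and 1.40 in siOCT4 cells and 9.67 and 4.07 in control cells (log2 change -1.90 ± 0.42, adjusted p = 0.0125), and GC corrected -0.24 ± 0.34 (adjusted p = 0.667). PSMA3-AS1 was no longer called without siOCT4 culture 2 (adjusted p = 0.0705), and its log2 change lay between -2.52 and -1.27 with 1 culture left out. THAP9-AS1 had ratios of 1.93 and 1.67 in siOCT4 cells and 6.21 and 5.46 in control cells (log2 change -1.70 ± 0.18, adjusted p = 0.000949), and GC corrected -0.63 ± 0.24 (adjusted p = 0.125). That these groups did not overlap was a condition for naming the RNAs.

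CEBPB-AS1, VIM-AS1 and CACTIN-AS1 were higher in siOCT4 cells at 20% oxygen. CEBPB-AS1 had ratios of 1.21 and 1.28 in siOCT4 cells and 0.272 and 0.545 in control cells (log2 change 1.70 ± 0.34, adjusted p = 0.00852), and GC corrected 1.45 ± 0.29 (adjusted p = 0.0275). VIM-AS1 had ratios of 0.822 and 0.941 in siOCT4 cells and 0.247 and 0.426 in control cells (log2 change 1.44 ± 0.36, adjusted p = 0.0185), and GC corrected 3.21 ± 0.50 (adjusted p = 0.0167), or 1.84 ± 0.38 with the mean GC content (adjusted p = 0.0266). As deposited, VIM-AS1 was no longer called without control culture 1 or either siOCT4 culture at 20% oxygen (adjusted p of up to 0.0919), with changes between 1.05 and 1.83. CACTIN is a factor associated with the spliceosome. CACTIN-AS1 had ratios of 0.736 and 0.691 in siOCT4 cells and 0.223 and 0.318 in control cells (log2 change 1.42 ± 0.28, adjusted p = 0.00767). GC corrected its change was 0.20 ± 0.22 (adjusted p = 0.551), and as deposited its call was lost without siOCT4 culture 1 at 20% oxygen (adjusted p = 0.0554).

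**Figure D3:**
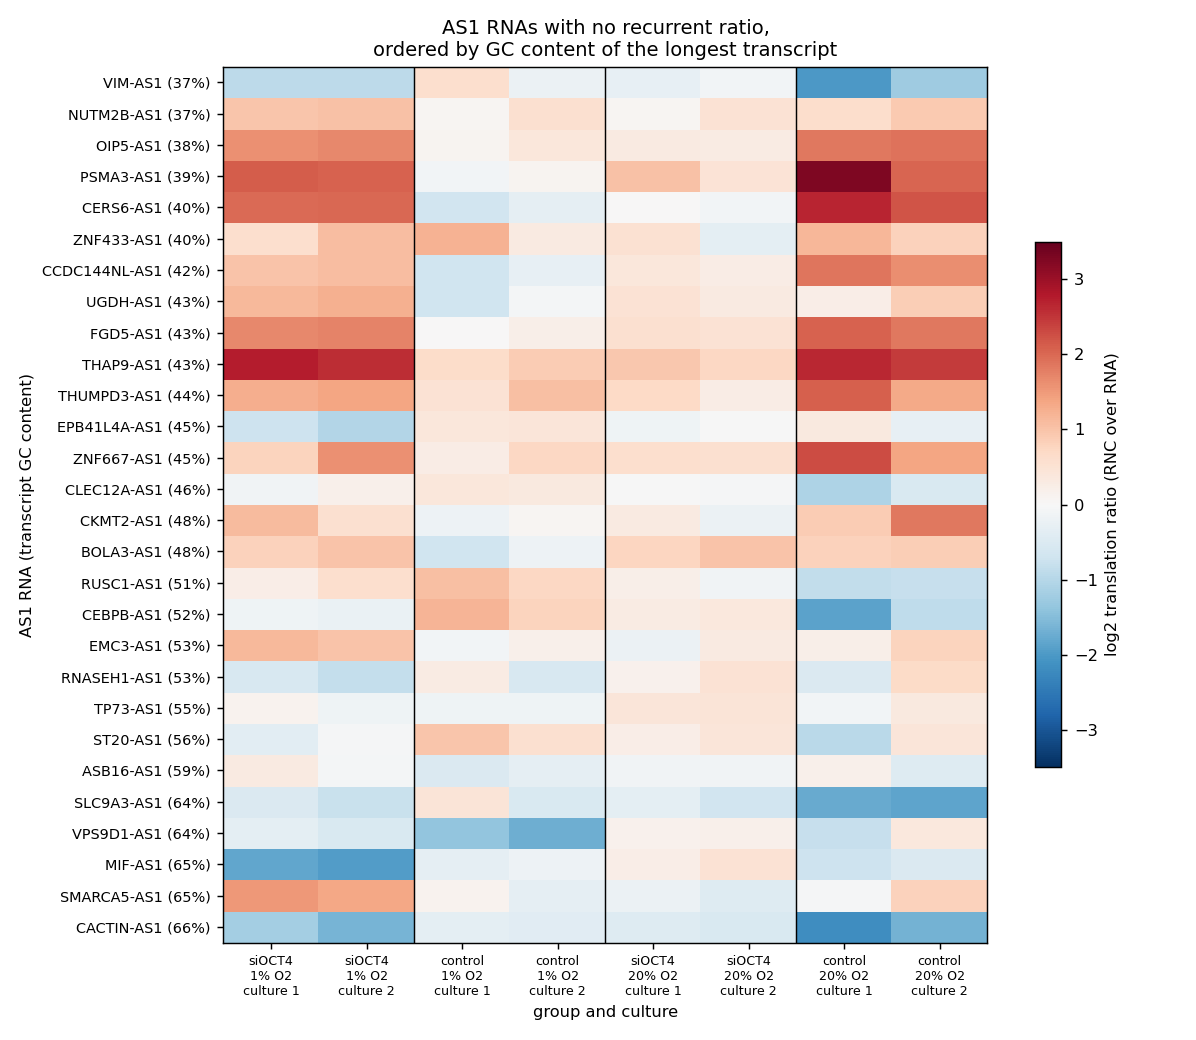
Log2 translation ratio of the AS1 RNAs with no recurrent ratio that have a GC content, 1 row per RNA ordered by GC content of the longest transcript and 1 column per culture. Red marks an RNC level above the RNA level and blue one below it. CERS6-AS1, PSMA3-AS1 and THAP9-AS1 are red in siOCT4 cells at 1% oxygen and control cells at 20% oxygen, and CACTIN-AS1 is blue in the same cultures.

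In siOCT4 cells, 1% oxygen gave a higher ratio than 20% oxygen for 61 AS1 RNAs and a lower one for 23 of 357, against 37.4% higher and 21.6% lower of all genes tested. The median log2 change was 0.21 over the AS1 RNAs and 0.27 over all genes tested. With each culture centred on its median, 43 were called higher and 41 lower, and the centred shares of all genes are not given here. GC corrected, 21 were called higher and 29 lower of 333, against 19.7% and 18.5% of all genes. As deposited, 36 were called higher and 7 lower without siOCT4 culture 2 at 20% oxygen, and 12 and 13 were lower without siOCT4 culture 1 and 2 at 1% oxygen. GC corrected, 6 were higher and 15 lower without culture 2 at 20% oxygen, 10 and 16 without culture 1 at 20%, 8 were higher without culture 1 at 1%, and 18 were lower without culture 2 at 1%.

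SMARCA5-AS1 and CERS6-AS1 rose with low oxygen in siOCT4 cells, and MIF-AS1 fell. SMARCA5-AS1 had ratios of 2.85 and 2.56 at 1% oxygen and 0.860 and 0.735 at 20% oxygen (log2 change 1.76 ± 0.31, adjusted p = 0.0045), and GC corrected 2.96 ± 0.26 (adjusted p = 0.0024). CERS6-AS1 changed by 2.03 ± 0.20 (adjusted p = 0.000848), and by 0.68 ± 0.11 GC corrected (adjusted p = 0.00676). THAP9-AS1 changed by 1.83 ± 0.18 (adjusted p = 0.00082), by 0.74 ± 0.24 GC corrected (adjusted p = 0.0576), and by 0.60 ± 0.16 with the mean GC content of its transcripts (adjusted p = 0.0337). EMC3-AS1 changed by 1.01 ± 0.26 (adjusted p = 0.0186), a call lost without either culture at 1% oxygen or culture 1 at 20% oxygen (adjusted p of up to 0.0942). GC corrected the change of EMC3-AS1 was 1.14 ± 0.25 with the longest transcript (adjusted p = 0.0177) and 0.73 ± 0.26 with the mean GC content (adjusted p = 0.0766). MIF-AS1 had ratios of 0.282 and 0.256 at 1% oxygen and 1.17 and 1.43 at 20% oxygen (log2 change -2.27 ± 0.19, adjusted p = 0.000683), and GC corrected -1.08 ± 0.27 (adjusted p = 0.0266). In MIF-AS1 the values at 1% oxygen lay below those at 20%, and groups that do not overlap were a condition for naming it. CACTIN-AS1 (log2 change -0.91 ± 0.28, adjusted p = 0.0318) and EPB41L4A-AS1 (-0.78 ± 0.24, adjusted p = 0.0322) were each called in 2 of 8 analyses that left out a culture. For EPB41L4A-AS1 the GC corrected change was -1.74 ± 0.23 (adjusted p = 0.00389), and for CACTIN-AS1 it was 0.33 ± 0.22 (adjusted p = 0.28).

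In control cells, 1% oxygen gave a higher ratio than 20% oxygen for 51 AS1 RNAs and a lower one for 73 of 357, against 20.5% higher and 39.6% lower of all genes tested. The median log2 change was -0.16 over the AS1 RNAs and -0.31 over all genes tested. GC corrected, 62 were called higher and 38 lower of 333, against 23.3% and 23.5% of all genes. As deposited the count of higher calls was 26 without control culture 1 at 1% oxygen and at most 65.

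CEBPB-AS1 had the largest rise of the 29 with no recurrent ratio, with ratios of 2.30 and 1.72 at 1% oxygen and 0.272 and 0.545 at 20% oxygen. Its log2 change was 2.37 ± 0.34 (adjusted p = 0.00177), and 2.19 ± 0.29 GC corrected (adjusted p = 0.00267). CEBPB itself had ratios of 3.83 and 2.36 at 1% oxygen and 0.199 and 0.350 at 20% oxygen (log2 change 3.51 ± 0.35, adjusted p = 0.00048), and GC corrected 2.47 ± 0.16 (adjusted p = 0.000527). Both rose, and why was not tested. Sense exons cover 8.72% of the exon bases of CEBPB-AS1, and the longest transcripts have a GC content of 52.1% for the antisense RNA and 66.2% for CEBPB. VIM-AS1 had ratios of 1.49 and 0.865 at 1% oxygen and 0.247 and 0.426 at 20% oxygen (log2 change 1.81 ± 0.36, adjusted p = 0.00639), and GC corrected 3.90 ± 0.50 (adjusted p = 0.00227), or 2.28 ± 0.38 with the mean GC content of its transcripts (adjusted p = 0.00535). VIM had ratios of 0.851 and 1.00 at 1% oxygen and 0.747 and 0.640 at 20% oxygen (log2 change 0.42 ± 0.16, adjusted p = 0.0617). SLC9A3-AS1, beside the gene of a sodium-hydrogen exchanger, had ratios of 1.37 and 0.694 at 1% oxygen and 0.295 and 0.277 at 20% oxygen (log2 change 1.77 ± 0.35, adjusted p = 0.00627), and GC corrected 0.87 ± 0.33 (adjusted p = 0.0756).

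CERS6-AS1 had the largest fall of the 29 with low oxygen in control cells, with ratios of 0.633 and 0.801 at 1% oxygen and 6.31 and 4.59 at 20% oxygen (log2 change -2.92 ± 0.20, adjusted p = 0.000185). GC corrected its change was -1.09 ± 0.11 (adjusted p = 0.00117). PSMA3-AS1 changed by -2.64 ± 0.42 (adjusted p = 0.00278), and GC corrected by -0.68 ± 0.34 (adjusted p = 0.151). CCDC144NL-AS1 had ratios of 0.618 and 0.817 at 1% oxygen and 3.65 and 3.09 at 20% oxygen (log2 change -2.24 ± 0.18, adjusted p = 0.000259), and GC corrected -0.69 ± 0.11 (adjusted p = 0.00419), or -1.57 ± 0.14 with the mean GC content of its transcripts (adjusted p = 0.00088), which is 47.9% where the longest has 41.7%. VPS9D1-AS1, GC-rich at 63.7%, was lower at 1% oxygen, with ratios of 0.386 and 0.309 against 0.569 and 1.29 at 20% oxygen (log2 change -1.31 ± 0.38, adjusted p = 0.0275). GC corrected the change of VPS9D1-AS1 was -2.21 ± 0.17 (adjusted p = 0.000708), and as deposited its call was lost without either control culture at 1% oxygen (adjusted p of up to 0.111). VPS9D1 had ratios of 0.977 and 0.507 at 1% oxygen and 0.276 and 0.576 at 20% oxygen (log2 change 0.82 ± 0.44, adjusted p = 0.158).

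The effect of siOCT4 at 1% oxygen differed from that at 20% oxygen for 139 AS1 RNAs, by the interaction term of the same limma analysis. The difference was positive for 93 and negative for 46 of 357, against 42.5% and 26.2% of all genes tested. With each culture centred on its median, 76 were positive and 73 negative, and the centred shares of all genes are not given here. GC corrected, 36 were positive and 60 negative of 333, against 23.5% and 21.8% of all genes, so that the direction of the majority turned round. The median was 0.22 over the AS1 RNAs as deposited and -0.38 GC corrected, and over all genes tested 0.49 and 0.04. In both analyses 24 were positive and 27 negative, and 6 were called in opposite directions. As deposited, 29 were negative without control culture 1 and 27 without siOCT4 culture 2 at 1% oxygen. GC corrected, 22 were positive without control culture 1 at 1% oxygen and 21 without either siOCT4 culture at 20% oxygen. CERS6-AS1 had the most positive difference of the 29 with no recurrent ratio, 4.95 ± 0.29 on the log2 scale (adjusted p = 8.04e-05), and 1.77 ± 0.16 GC corrected (adjusted p = 0.000996). SMARCA5-AS1 had a difference of 2.25 ± 0.44 (adjusted p = 0.00484), and 4.43 ± 0.37 GC corrected (adjusted p = 0.000944). CEBPB-AS1 had a difference of -2.88 ± 0.48 (adjusted p = 0.00252), which was -2.65 ± 0.41 after the GC correction (adjusted p = 0.00449).

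The AS1 RNAs did not have a ratio far from that of their sense genes as a class. Over the 337 pairs the median AS1 minus sense difference of log2 ratios was -0.17 and -0.16 in the 2 siOCT4 cultures at 1% oxygen and 0.20 and 0.17 in control cultures at 1% oxygen. It was 0.03 and 0.03 in siOCT4 cultures at 20% oxygen and -0.28 and 0.05 in control cultures at 20% oxygen. The AS1 RNA was above its sense gene in 44.2% to 59.1% of the pairs in a culture. The 2 control cultures at 20% oxygen differed in sign, so the difference there was within the spread between cultures.

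Among the 14 pairs with no recurrent ratio in either gene, OIP5-AS1, PSMA3-AS1 and RUSC1-AS1 stood highest above their sense genes. OIP5-AS1, also known as Cyrano, had ratios of 3.03 and 3.20 in siOCT4 cells and 1.07 and 1.31 in control cells at 1% oxygen, and 1.25 and 1.22 in siOCT4 cells and 3.62 and 3.71 in control cells at 20% oxygen. OIP5, which helps load the centromere histone, had 1.02 and 1.31 in siOCT4 cells and 0.857 and 0.818 in control cells at 1% oxygen, and 1.64 and 1.47 in siOCT4 cells and 3.09 and 2.16 in control cells at 20% oxygen. OIP5-AS1 was above OIP5 in 6 of 8 cultures, with a mean log2 difference of 0.52 ± 0.69 (SD over cultures), and below it in both siOCT4 cultures at 20% oxygen. PSMA3-AS1 was above PSMA3 in 4 of 8 cultures (mean 0.50 ± 0.88), and in siOCT4 cells at 1% oxygen its 4.30 and 4.17 stood against 1.13 and 1.21 for PSMA3. RUSC1-AS1 was above RUSC1 in 4 of 8 cultures (mean 0.45 ± 0.89). For all 3 the mean was smaller than the spread over cultures.

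Of the same 14 pairs, EPB41L4A-AS1 stood farthest below its sense gene, in 8 of 8 cultures, with a mean log2 difference of -1.30 ± 1.29. In control cells at 20% oxygen it had ratios of 1.27 and 0.815, and EPB41L4A had 3.38 and 5.63. RNASEH1-AS1 was above RNASEH1, which encodes a nuclease that removes RNA from RNA-DNA hybrids, in 2 of 8 cultures (mean -0.79 ± 0.88). UGDH-AS1 was above UGDH, the gene of UDP-glucose dehydrogenase, in 2 of 8 cultures (mean -0.58 ± 0.74). In control cells at 20% oxygen UGDH-AS1 had 1.18 and 1.80 against 4.61 and 4.42 for UGDH, whereas in control cells at 1% oxygen it had 0.621 and 0.962 against 0.854 and 1.01.

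As deposited, the change of an AS1 RNA followed that of its sense gene more closely the more their exons overlapped. Of the 313 placed pairs with all values, 66 share no exon base, 102 share up to 10% of the exon bases of the AS1 RNA, 115 over 10 to 50% and 30 over 50%. For siOCT4 against control siRNA at 1% oxygen, Pearson's r of the 2 log2 changes was 0.14, 0.23, 0.48 and 0.68 across these classes in that order. At 20% oxygen it was 0.02, 0.43, 0.57 and 0.74. For 1% against 20% oxygen it was 0.03, 0.22, 0.50 and 0.76 in siOCT4 cells and 0.12, 0.34, 0.51 and 0.63 in control cells. These are descriptions across pairs that share the same libraries, with no test. The GC contents of AS1 RNA and sense gene were also correlated, with r of 0.42, 0.57, 0.59 and 0.58 in the 4 classes.

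GC corrected, r was again higher over 50% overlap than with no overlap in the 4 comparisons, and lower than as deposited in the classes between. The r values were 0.14, -0.02, 0.29 and 0.53 for siOCT4 at 1% oxygen and -0.13, 0.00, 0.17 and 0.60 for siOCT4 at 20% oxygen. For 1% against 20% oxygen they were -0.03, -0.05, 0.25 and 0.42 in siOCT4 cells and 0.14, 0.12, 0.25 and 0.66 in control cells. Among the 30 pairs with over 50% overlap, AS1 RNA and sense gene were both called as deposited, and in the same direction, in 13 pairs for siOCT4 at 1% oxygen and 7 at 20%, and in 11 and 12 pairs for low oxygen in siOCT4 and control cells. They were called in opposite directions in 0, 0, 0 and 1 pairs. Among the 66 pairs with no shared exon base, the same-direction counts were 8, 6, 7 and 9 and the opposite ones 3, 4, 2 and 4, in that order of comparisons. GC corrected, fewer pairs were called, with same-direction counts of 5, 3, 3 and 6 and opposite ones of 0, 0, 0 and 1 among the 30. Among the 66 they were 4, 0, 0 and 8 in the same direction and 4, 1, 5 and 2 in opposite directions. Calls over all genes tested leaned to 1 direction as deposited, so unrelated genes can share a direction too. For siOCT4 the shares higher and lower were 41.1% and 19.9% at 1% oxygen and 19.2% and 34.1% at 20%. For low oxygen they were 37.4% and 21.6% in siOCT4 cells and 20.5% and 39.6% in control cells. Counts for unrelated pairs are not given here. The differences between the 2 cultures of a group were correlated less between AS1 RNA and sense gene in the class over 50%, with r from -0.01 to 0.32 in the 4 groups. Shared reads between overlapping exons, which unstranded counting would give, were not tested.

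**Figure D4:**
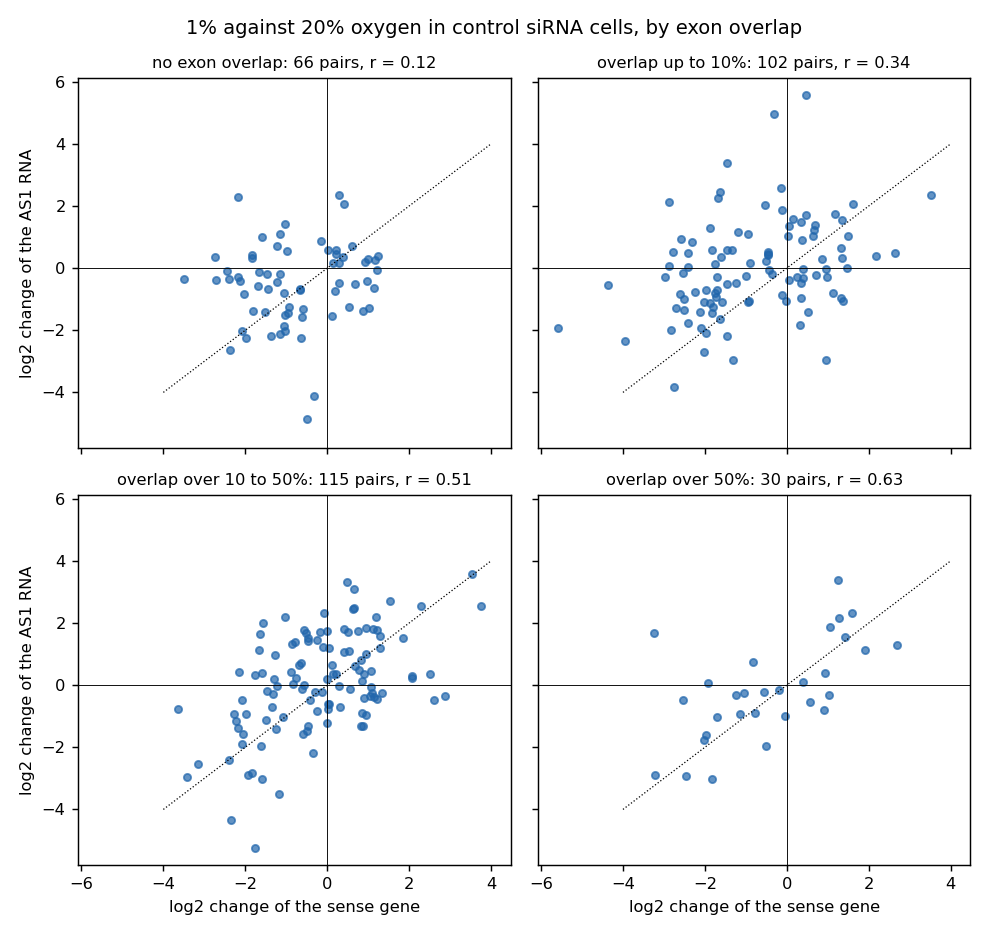
Log2 change of the AS1 RNA against that of its sense gene for 1% against 20% oxygen in control cells, 1 point per pair, in 4 classes of exon overlap. The dotted line marks equal change, and Pearson's r is 0.12 with no overlap and 0.63 with over 50%.

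**Figure D5:**
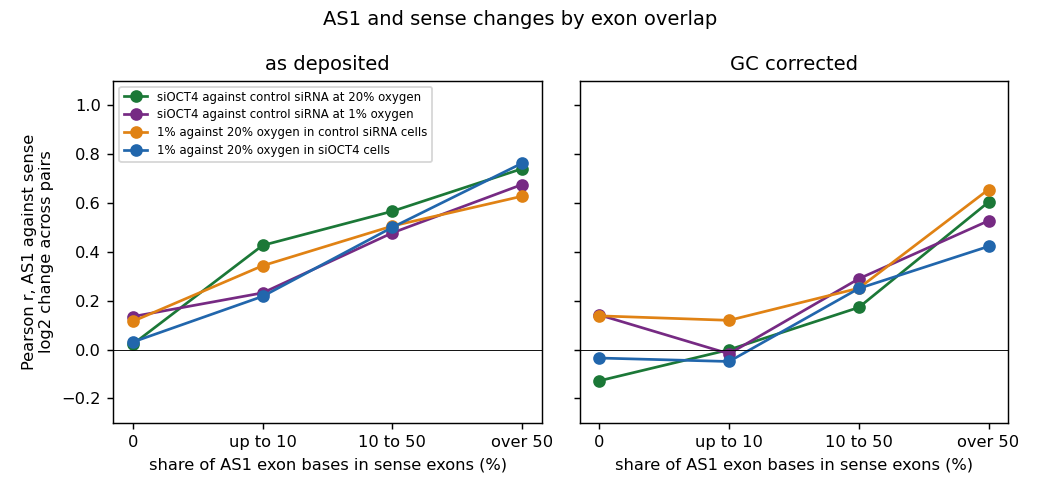
Pearson's r between the log2 changes of AS1 RNAs and sense genes in 4 classes of exon overlap, for the 4 comparisons of 2 groups, as deposited (left) and GC corrected (right). In the class over 50%, of 30 pairs, r lies between 0.63 and 0.76 as deposited and between 0.42 and 0.66 GC corrected.

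CERS6-AS1 and CACTIN-AS1 belong to the class over 50%, with sense exons over 69.7% and 54.1% of their exon bases, as does SMARCA5-AS1. MIF-AS1, with 46.5%, belongs to the class of 10 to 50%. CERS6 had ratios of 2.97 and 3.39 in siOCT4 cells and 0.766 and 0.991 in control cells at 1% oxygen, and 1.21 and 1.16 in siOCT4 cells and 5.33 and 4.34 in control cells at 20% oxygen. The mean log2 difference between CERS6-AS1 and CERS6 was -0.02 ± 0.30 over the 8 cultures. CACTIN had 0.467 and 0.484 in siOCT4 cells and 0.952 and 0.744 in control cells at 1% oxygen, and 0.889 and 0.844 in siOCT4 cells and 0.249 and 0.399 in control cells at 20% oxygen, with a mean difference of -0.24 ± 0.18. MIF had 0.245 and 0.265 in siOCT4 cells and 1.05 and 0.783 in control cells at 1% oxygen, and 1.20 and 1.55 in siOCT4 cells and 0.394 and 0.598 in control cells at 20% oxygen, with a mean difference of 0.08 ± 0.30. THAP9-AS1, with 4.53% of its exon bases in sense exons, also stayed near its sense gene, at 0.05 ± 0.29. FGD5-AS1, with 3.43%, did not. It stood above FGD5, which encodes an exchange factor for CDC42, in 8 of 8 cultures, with a mean difference of 1.44 ± 0.90. FGD5 had a recurrent ratio, so the pair is not among the 14 with none in either gene.

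Of 31 widely expressed AS1 RNAs listed, 25 had 8 ratios, and 6 of these had no recurrent ratio. For siOCT4 at 1% oxygen 11 were called higher and 4 lower, with a median log2 change of 0.53. At 20% oxygen 2 were higher and 8 lower (median -0.37). With low oxygen 10 were higher and 2 lower in siOCT4 cells (median 0.43), and 3 were higher and 9 lower in control cells (median -0.72). The shares called higher and lower of all genes were 41.1% and 19.9% for siOCT4 at 1% oxygen, 19.2% and 34.1% at 20%, 37.4% and 21.6% for low oxygen in siOCT4 cells and 20.5% and 39.6% in control cells. GC corrected, 2 of the 25 were higher and 6 lower for siOCT4 at 1% oxygen, 3 and 0 at 20%, 0 and 5 for low oxygen in siOCT4 cells, and 4 and 2 in control cells. The GC corrected medians in the same order were -0.29, 0.17, -0.05 and 0.23, each of the other sign. Over all genes tested the medians were 0.42, -0.09, 0.27 and -0.31 as deposited, and -0.009, -0.038, 0.045 and 0.004 GC corrected. GC corrected, 22.3% of all genes were called higher and 23% lower for siOCT4 at 1% oxygen, and 8.57% and 9.12% at 20%. For low oxygen the GC corrected shares of all genes were 19.7% and 18.5% in siOCT4 cells and 23.3% and 23.5% in control cells. OIP5-AS1 was called in all 4 comparisons, with log2 changes of 1.40 ± 0.15 (adjusted p = 0.000623) for siOCT4 at 1% oxygen and -1.57 ± 0.15 (adjusted p = 0.000714) at 20%. Its corrected values depend on the transcript taken, since the longest has a GC content of 38.4% and the mean over its transcripts is 46.5%. With the longest transcript OIP5-AS1 was called in none of the 4 comparisons, with changes of -0.29 ± 0.12 and 0.11 ± 0.12 for siOCT4 at 1% and 20% oxygen (adjusted p = 0.106 and 0.557). With the mean it was called in 2, with changes of -0.74 ± 0.12 for siOCT4 at 20% oxygen (adjusted p = 0.0145) and -0.68 ± 0.12 for low oxygen in control cells (adjusted p = 0.00583), and at 1% oxygen the siOCT4 change was 0.31 ± 0.12 (adjusted p = 0.076). FGD5-AS1 had ratios of 3.21 and 3.32 in siOCT4 cells and 1.01 and 1.15 in control cells at 1% oxygen (log2 change 1.60 ± 0.14, adjusted p = 0.000418). GC corrected the change was 0.28 ± 0.10 (adjusted p = 0.0621) with the longest transcript, and 0.96 ± 0.15 (adjusted p = 0.00467) with the mean GC content of its 5 annotated transcripts.

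Of 31 listed AS1 RNAs beside genes of developmental transcription factors, 6 had 8 ratios and each of them had a recurrent ratio. For siOCT4 at 1% oxygen 1 of the 6 was called higher (median log2 change 0.13), and with low oxygen in control cells 1 was called higher and 2 lower (median -0.38). Of all genes 41.1% were called higher in the first of these comparisons, and 20.5% higher and 39.6% lower in the second. GC corrected, 1 of the 6 was called higher and 1 lower in each. The GC corrected shares of all genes were 22.3% higher and 23% lower in the first, and 23.3% and 23.5% in the second. The most marked was FEZF1-AS1, beside the gene of a forebrain zinc finger factor. At 1% oxygen it had ratios of 1.43 and 1.11 in siOCT4 cells and 0.160 and 0.379 in control cells (log2 change 2.35 ± 0.41, adjusted p = 0.00401). At 20% oxygen it had 1.97 and 1.93 in siOCT4 cells and 1.26 and 1.59 in control cells (log2 change 0.46 ± 0.41, adjusted p = 0.371). Both control cultures at 1% oxygen were low and every other culture was above 1. FEZF1 was low in the same cultures, with ratios of 0.932 and 1.32 in siOCT4 cells and 0.134 and 0.227 in control cells at 1% oxygen (log2 change 2.67 ± 0.32, adjusted p = 0.000979), and sense exons cover 18.4% of FEZF1-AS1. GC corrected FEZF1-AS1 changed by 2.70 ± 0.44 (adjusted p = 0.0055). ZEB1-AS1, beside the gene of a regulator of epithelial-mesenchymal transition, had 2.06 and 2.05 at 1% oxygen and 1.62 and 1.30 at 20% oxygen in control cells (log2 change 0.51 ± 0.15, adjusted p = 0.0268), and ZEB1 had 0.728 and 0.904 against 6.64 and 4.67 (log2 change -2.78 ± 0.31, adjusted p = 0.000641). The call of ZEB1-AS1 held in 1 of 8 analyses that left out a culture. GC corrected its change was 1.68 ± 0.12 with the longest transcript (adjusted p = 0.000587) and 0.05 ± 0.26 with the mean GC content (adjusted p = 0.89). FOXD3-AS1 and NR2F1-AS1, beside genes of a neural crest factor and of an orphan nuclear receptor, passed no test as deposited. For siOCT4 at 1% oxygen their log2 changes were -0.02 ± 0.51 and 0.28 ± 0.76 (adjusted p = 0.977 and 0.765).

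All 20 AS1 RNAs beside ZNF genes, which encode zinc finger proteins, had 8 ratios because the list was drawn from those that do, and 2 had no recurrent ratio. For siOCT4 at 1% oxygen 1 was called higher and 2 lower, and at 20% oxygen 3 and 3. With low oxygen 2 were higher and 2 lower in siOCT4 cells, and 3 and 4 in control cells. The median log2 changes were -0.01, -0.41, 0.33 and -0.17. Of all genes 41.1% were called higher and 19.9% lower for siOCT4 at 1% oxygen and 19.2% and 34.1% at 20%, and for low oxygen the shares were 37.4% and 21.6% in siOCT4 cells and 20.5% and 39.6% in control cells. GC corrected, of 18 with a GC content, 0 were higher and 5 lower for siOCT4 at 1% oxygen, and 3 and 1 at 20%. For low oxygen the counts were 0 and 1 in siOCT4 cells, and 6 and 1 in control cells. The GC corrected shares of all genes, in that order, were 22.3% and 23%, 8.57% and 9.12%, 19.7% and 18.5%, and 23.3% and 23.5%. ZNF582-AS1 had ratios of 2.10 and 2.11 at 1% oxygen and 0.703 and 0.90 at 20% oxygen in control cells (log2 change 1.41 ± 0.27, adjusted p = 0.00549). ZNF582 went the other way, with 1.31 and 1.73 at 1% oxygen and 3.11 and 3.01 at 20% oxygen (log2 change -1.03 ± 0.17, adjusted p = 0.00279). The 2 genes share no exon base and start within 1000 bases of each other. GC corrected both were called higher, with 1.84 ± 0.25 for ZNF582-AS1 (adjusted p = 0.00284) and 0.65 ± 0.11 for ZNF582 (adjusted p = 0.00615). ZNF667-AS1 was called lower with low oxygen in control cells as deposited, with ratios of 1.19 and 1.65 at 1% oxygen and 4.87 and 2.61 at 20% oxygen (log2 change -1.35 ± 0.40, adjusted p = 0.0287). That call was lost without either control culture at 1% oxygen or control culture 1 at 20% (adjusted p of up to 0.133), and GC corrected the change was -0.38 ± 0.37 (adjusted p = 0.438). ZNF674-AS1 was called higher with low oxygen in siOCT4 cells as deposited (log2 change 0.94 ± 0.25, adjusted p = 0.0193), but GC corrected the change had the other sign, -0.09 ± 0.20 (adjusted p = 0.762), and the call was lost without any 1 of the 4 siOCT4 cultures (adjusted p of up to 0.0936). ZNF433-AS1 passed no test as deposited, with a log2 change of 0.07 ± 0.43 for siOCT4 at 1% oxygen (adjusted p = 0.899). Of the 2 AS1 RNAs beside genes of RNA processing, ribosome or translation factors, MRPL20-AS1 was lower at 1% oxygen in siOCT4 cells, with ratios of 0.554 and 0.665 against 1.11 and 1.18 at 20% oxygen (log2 change -0.91 ± 0.25, adjusted p = 0.0222). Its call too was lost without any 1 of the 4 siOCT4 cultures (adjusted p of up to 0.103). MRPL20, the gene of a mitochondrial ribosomal protein, fell with it, with ratios of 0.591 and 0.681 against 1.37 and 1.48 (log2 change -1.16 ± 0.15, adjusted p = 0.00145). DDX11-AS1, beside a helicase gene, passed no test as deposited, with a log2 change of 0.87 ± 0.36 for low oxygen in siOCT4 cells (adjusted p = 0.0829).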

How the data were processed

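Total RNA, and the RNA held by ribosomes with their nascent chains, were sequenced from 8 labelled cultures of H9 cells, in 4 groups of 2. The authors deposited 1 linear ratio per gene and culture, the translation ratio. Per the submitters' processing notes edgeR and hg19 were used, with no role given. For the aligner, annotation, strand setting and depth, the state is: not given in the sources used here. Columns marked sO were read as siOCT4.

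Log2 ratios of 15864 genes with 8 ratios were fitted as 4 group means with limma 3.58.1 in R 4.3.3 (trend and robust moderation, no pseudocount). Tests were two-sided, adjusted by Benjamini-Hochberg over the 15864 genes, with a threshold of 0.05, and were checked on simulated data. The labels do not say that the 2 cultures of a group are separate cultures, so a p-value measures only the spread between labelled samples, which may be technical. GC content is that of the longest GENCODE 29 transcript matched by symbol, and the correction is a spline with 6 degrees of freedom in each culture. The members and lists were chosen with earlier results of these data known. Named in the text are, per comparison and direction, the 3 AS1 RNAs with the largest change among those called, with groups that do not overlap and no recurrent ratio. Up to 2 more were named by GC corrected change, up to 4 per list, and the 3 pairs at each end of the AS1 minus sense difference, each with its sense gene. Alternatives were centring, corrections for GC content and length, a replicate block, other limma settings, a pseudocount of 0.1, recurrent ratios left out, other gene filters, only the groups compared and each culture left out.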

Additional observations from a re-analysis of the deposited data

Results flagged for a closer look

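For 19 named AS1 RNAs the effect of siOCT4 at 1% oxygen differed from that at 20% oxygen by the interaction term in limma (adjusted p under 0.05). The difference of log2 changes, 1% minus 20% oxygen, was 4.95 for CERS6-AS1, 3.98 for PSMA3-AS1, 3.60 for THAP9-AS1, 3.0 for FGD5-AS1, 2.97 for OIP5-AS1 and 2.95 for CCDC144NL-AS1. It was 2.25 for SMARCA5-AS1, 1.98 for ZNF667-AS1, 1.89 for FEZF1-AS1, 1.69 for UGDH-AS1 and 1.48 for EMC3-AS1. It was -2.88 for CEBPB-AS1, -2.63 for MIF-AS1, -2.55 for VIM-AS1, -2.44 for CACTIN-AS1, -1.92 for SLC9A3-AS1, -1.36 for RUSC1-AS1, -1.17 for EPB41L4A-AS1 and -1.14 for ZNF582-AS1. With 1 culture left out, the call was lost in 6 of 8 analyses for ZNF582-AS1, in 5 of 8 for EPB41L4A-AS1, FEZF1-AS1 and ZNF667-AS1, and in 2 of 8 for SLC9A3-AS1. The other 14 were called in all 8. Of all genes tested, 42.5% had a positive and 26.2% a negative difference by the same test.

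GC corrected with the longest transcript, 11 of the 19 were called in the same direction, 5 kept the sign and were not called, and 3 had the other sign and were not called. The 5 were PSMA3-AS1 (0.63, adjusted p = 0.325), MIF-AS1 (-0.47, adjusted p = 0.358), CACTIN-AS1 (-0.20, adjusted p = 0.637), CCDC144NL-AS1 (0.17, adjusted p = 0.405) and ZNF667-AS1 (0.06, adjusted p = 0.939). The 3 were OIP5-AS1 (-0.41, adjusted p = 0.11), UGDH-AS1 (-0.79, adjusted p = 0.157) and SLC9A3-AS1 (0.09, adjusted p = 0.891). With the mean GC content of all transcripts 11 were again called in the same direction, which included OIP5-AS1 (1.05, adjusted p = 0.00439) and CCDC144NL-AS1 (1.5, adjusted p = 0.00259). EMC3-AS1 (1.08, adjusted p = 0.058) and RUSC1-AS1 (-0.61, adjusted p = 0.125) were then not called, and UGDH-AS1 was called with the other sign (-1.29, adjusted p = 0.0467).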

How the results depend on the processing

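The analyses without 1 culture of GC corrected values and the GC content averaged over transcripts were chosen after seeing the data. For siOCT4 at 20% oxygen, 7 AS1 RNAs were called higher and 12 lower with recurrent ratios left out, 17 were higher with only the 2 groups compared, and 11, 10 and 14 were lower with the GC correction, the GC and length correction and the mean GC content of all transcripts. For siOCT4 at 1% oxygen, those 3 corrections gave 35, 48 and 32 higher, and 54 lower with the first and the third. Median centring gave 57 lower, and leaving out recurrent ratios gave 14 higher and 7 lower. For low oxygen in control cells, the 3 corrections gave 38, 36 and 34 lower, and leaving out recurrent ratios 7 higher and 13 lower. For low oxygen in siOCT4 cells, the corrections gave 21, 34 and 26 higher, centring 41 lower, the 2 groups alone 37 lower, and leaving out recurrent ratios 12 higher and 5 lower. For the interaction, the corrections gave 36, 43 and 40 positive, centring 73 negative, and leaving out recurrent ratios 15 positive and 9 negative. Leaving out recurrent ratios leaves 29 AS1 RNAs to test. For the other changes the cause was not tested. Of the 8087 genes with no recurrent ratio, 32.5% were called higher and 44.9% lower for siOCT4 at 20% oxygen, and 50.3% and 29.1% at 1%. For low oxygen they were 28.0% and 49.0% in control cells and 47.7% and 32.5% in siOCT4 cells, and for the interaction 50.4% and 34.6%. Shares of all genes with centring, length added, the mean GC content, the 2 groups alone or a culture left out are not given here.

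With 1 culture left out, the counts as deposited ranged over 9 to 56 higher and 25 to 49 lower for siOCT4 at 20% oxygen, 56 to 87 and 22 to 42 for siOCT4 at 1%, 26 to 65 and 53 to 74 for low oxygen in control cells, 36 to 71 and 7 to 32 in siOCT4 cells, and 73 to 93 and 27 to 66 for the interaction. GC corrected the ranges were 0 to 35 and 0 to 12, 17 to 40 and 32 to 62, 44 to 68 and 27 to 38, 6 to 31 and 15 to 37, and 21 to 38 and 43 to 64. Within these, siOCT4 at 20% had 19 higher and 8 lower without control culture 1 at 1%, 17 and 8 without control culture 2 at 1%, 8 higher without control culture 1 at 20%, and 16 without either siOCT4 culture at 1%. siOCT4 at 1% had 19 higher without control culture 1 at 1% and 61 lower without control culture 2 at 20%. Low oxygen in siOCT4 cells had 18 higher without either control culture at 1% and 8 without siOCT4 culture 1 at 1%. The interaction had 24 positive without either siOCT4 culture at 1%.

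Directions that turned round did so under a GC correction, given here with the longest transcript, then with length added, then with the mean GC content where that reversed too. They were 0.0093, 0.18 and 0.0041 for CACTIN-AS1 with siOCT4 at 1% oxygen, and 0.33, 0.53 and 0.34 for CACTIN-AS1 with low oxygen in siOCT4 cells. PSMA3-AS1 had -0.049 with low oxygen in siOCT4 cells under the first alone. MIF-AS1 had -0.18, -0.17 and -0.17 with siOCT4 at 20%. SLC9A3-AS1 had 0.090 and 0.11 for the interaction. CCDC144NL-AS1 had -0.53, -0.49 and -0.068 with low oxygen in siOCT4 cells. OIP5-AS1 had 0.11 and 0.11 with siOCT4 at 20%, -0.29 and -0.62 with siOCT4 at 1%, 0.36 and 0.34 with low oxygen in control cells, -0.049 and -0.39 in siOCT4 cells, and -0.41 and -0.73 for the interaction. ZNF674-AS1 had -0.086 and -0.088 with low oxygen in siOCT4 cells, under the first and the third. UGDH-AS1 had 0.42, 0.40 and 0.77 with low oxygen in control cells and -0.79, -0.59 and -1.29 for the interaction.

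The median log2 ratio of the AS1 RNAs, GC corrected, was -0.027 in siOCT4 cells at 1% oxygen, 0.058 in siOCT4 cells at 20% and -0.019 in control cells at 20%. With recurrent ratios left out it was 0.84 in siOCT4 and 0.0051 in control cells at 1%, and 0.30 in siOCT4 and 0.49 in control cells at 20%. Without 1 culture it ranged over 0.42 to 0.49 and 0.19 to 0.20 at 1%, and 0.19 to 0.20 and 0.15 to 0.38 at 20%, siOCT4 first. The median AS1 minus sense difference, GC corrected, was -0.13 in siOCT4 and 0.21 in control cells at 1%, and 0.11 in siOCT4 cells at 20%. With recurrent ratios left out it was -0.31 and -0.11 at 1% and -0.077 in siOCT4 cells at 20%. Without 1 culture it ranged over -0.17 to -0.16 and 0.17 to 0.20 at 1%, and 0.028 to 0.029 and -0.28 to 0.05 at 20%.

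With the replicate number as a block, 81 AS1 RNAs were called higher and 32 lower for siOCT4 at 1% oxygen, 27 and 42 at 20%, 59 and 22 for low oxygen in siOCT4 cells and 50 and 75 in control cells. Shares of all genes called with the block are not given here. The block ended 4 of 140 named results. The labels do not say whether the numbers pair the samples. The deviations of same-numbered cultures correlated between -0.23 and 0.02, which cannot settle how the cultures were handled. A pseudocount of 0.1 changed none of the 140. Of the named calls, the GC correction with the longest transcript kept the direction and the call in 7 of 15 for siOCT4 at 1% oxygen, 5 of 14 at 20%, 5 of 13 for low oxygen in siOCT4 cells, where 1 had no GC content, and 10 of 17 in control cells. The unknown depth limits how far any single ratio can be read.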
